A study of Mus musculus with 5 samples.

Results

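Transcripts of the immunoglobulin constant genes and of the joining chain gene Jchain were followed through 5 single-cell libraries of mouse heart. The members were chosen by gene symbol alone and make up 10 of the 31053 gene rows in the files. They are the heavy chain constant genes Ighm, Ighd, Ighg1, Ighg2b, Ighg2c, Ighg3 and Igha, the light chain constant genes Igkc and Iglc2, and Jchain. In GENCODE M21 (GRCm38) the heavy chain genes lie on the minus strand of chromosome 12, from Igha (chr12:113254830-113260236) to Ighm (chr12:113418558-113422730). Igkc lies at chr6:70726435-70726966 on the plus strand, Iglc2 at chr16:19198396-19200351 and Jchain at chr5:88519809-88527891, both on the minus strand.

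All mice lacked Pdcd1, the gene of the inhibitory T cell receptor PD-1. Control mice were Ctla4+/+Pdcd1-/- (4 mice, 2 libraries, replicates 1 and 2), and disease mice were Ctla4+/-Pdcd1-/- (10 mice, 3 libraries, replicates 3, 4 and 5). Ctla4 encodes a second inhibitory T cell receptor, and the series presents the disease mice as a genetic model of heart inflammation under immune checkpoint inhibitors. Hearts were digested with enzymes and pooled, DRAQ5+DAPI- cells were sorted, and libraries were made with the 10x Genomics 5′ chemistry. The sort keeps intact nucleated cells and does not select B cells. Strain, age, sex and the mice behind each library are not given in the sources used here. The p-values therefore measure the spread between libraries, and whether libraries of a group came from separate pools of hearts is not known. Values per library are given in the order of the replicate numbers. The genotype labels of 3 libraries read Pdcd2 or Pdcd3 and the sort labels of 4 carry other DRAQ numbers, whereas the design text gives Pdcd1-/- and DRAQ5+DAPI- throughout, which was followed.

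After filters, 5520 to 9534 cell barcodes per library remained, with a median of 3336.5 to 4540 UMIs (unique molecular identifiers, 1 per captured transcript) each. Between 86 and 161 barcode sequences were shared by any 2 libraries, 1.33 to 1.90% of the smaller one. A barcode was called B lineage where Cd79a, Cd79b and Ms4a1 summed to at least 3 UMIs. T barcodes needed at least 3 UMIs of Cd3d, Cd3e, Cd3g and Trac, myeloid ones of Csf1r, C1qa, C1qb and C1qc, endothelial ones of Cdh5, Pecam1 and Kdr, and fibroblast ones of Pdgfra, Dpt and Tcf21. Barcodes of these 4 classes met no other gate and held no UMI of the 3 B genes.

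A B cell makes its antibody from a rearranged heavy chain, joined from a V, D and J segment and a constant gene, and a kappa or lambda light chain. Mature B cells carry IgM and IgD, encoded by Ighm and Ighd, from a single rearranged locus by alternative RNA processing. Class switching replaces these with Ighg or Igha constant genes, and antibody-secreting plasma cells add Jchain, which links IgM or IgA units into polymers. In 5′ libraries the reads fall near the start of the transcript, so a rearranged antibody transcript is counted largely on its V segment, and the constant genes receive the remainder. A constant gene can also be transcribed without rearrangement, as a germline transcript that holds no V segment.

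The gate recovered 171 and 280 B lineage barcodes in controls, and 168, 535 and 219 in disease libraries. These were 1.92 and 5.07% of kept barcodes in control libraries and 2.94, 5.61 and 2.93% in disease libraries. The groups overlapped, with means of 3.50 ± 2.23% (SD, n = 2) and 3.83 ± 1.54% (SD, n = 3), and the difference of 0.33 percentage points had p = 0.90 (two-sided exact permutation over 10 splits, smallest possible p 0.1, adjusted p = 1 over 6 such tests). The difference was -1.24 points without control replicate 1 and -0.56 points without disease replicate 4. It was -0.0022 points when only barcodes that met no other gate were counted.

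The label was checked against immunoglobulin V segments, which the gate did not use. Of the 116, 270, 150, 388 and 193 barcodes (replicates 1 to 5) that met only the B gate, 99.3 to 100% held a UMI of a V segment. The 8 B cell markers that the gate did not use were each detected in them in every library. In control replicate 1, 41 of the 171 B lineage barcodes also met the myeloid gate, and only 36.6% of these had a V segment UMI. Cd79b was present in 95.1% of those 41 barcodes and Cd79a in 34.1%. Disease replicate 4 held 87 barcodes of the same kind, of which 65.5% had a V segment UMI. Counts of B lineage barcodes in these libraries therefore include Cd79b-positive barcodes with macrophage markers, and levels below are given for the barcodes that met only the B gate unless stated. At the edge of the gate, barcodes with exactly 3 UMIs numbered 5 to 38 per library with V segments in 0 to 83.3% of them. Those with 2 UMIs, just outside, numbered 18 to 74 with V segments in 3.57 to 12.2%.

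Ighm, the mu heavy chain, was present in 74.1 and 75.2% of the B-only barcodes of the control libraries, and in 84.7, 76.0 and 86.5% of those of the disease libraries. Its level was 623 and 778 CPM (the gene’s UMIs summed over a class and scaled to the total UMIs of that class) in control libraries and 885, 872 and 961 CPM in disease libraries. The disease libraries lay above the control libraries for Ighm, with means of 906 ± 48.0 CPM (SD, n = 3) and 700.3 ± 110 CPM (SD, n = 2). After scaling, 19.6% of the 5074 genes tested in these barcodes also lay higher in each disease library. The 11 B cell markers, gate genes included, summed to 10126 and 10923 CPM in control libraries. In disease libraries they summed to 11526, 14000 and 12662 CPM. Ighd, the delta heavy chain, stood at 211 and 254 CPM in control and at 237, 320 and 252 CPM in disease libraries, and these ranges overlapped. Both transcripts were seen together in 34.5 to 42.7% of B-only barcodes and Ighm without Ighd in 37.4 to 44.0%.

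Igkc, the kappa constant gene, stood at 846 and 820 CPM in controls, and at 1775, 1696 and 1107 CPM in disease libraries. Igkc was above both control libraries in each disease library, as were 19.6% of the 5074 genes tested after scaling. The 2 highest values contained 1 antibody-rich barcode each, described below. Without those 2 barcodes Igkc stood at 1068, 885 and 1107 CPM in disease libraries. Iglc2, a lambda constant gene, stood at 462 and 322 CPM in control and at 397, 440 and 456 CPM in disease libraries, with overlap between the groups.

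**Figure D1:**
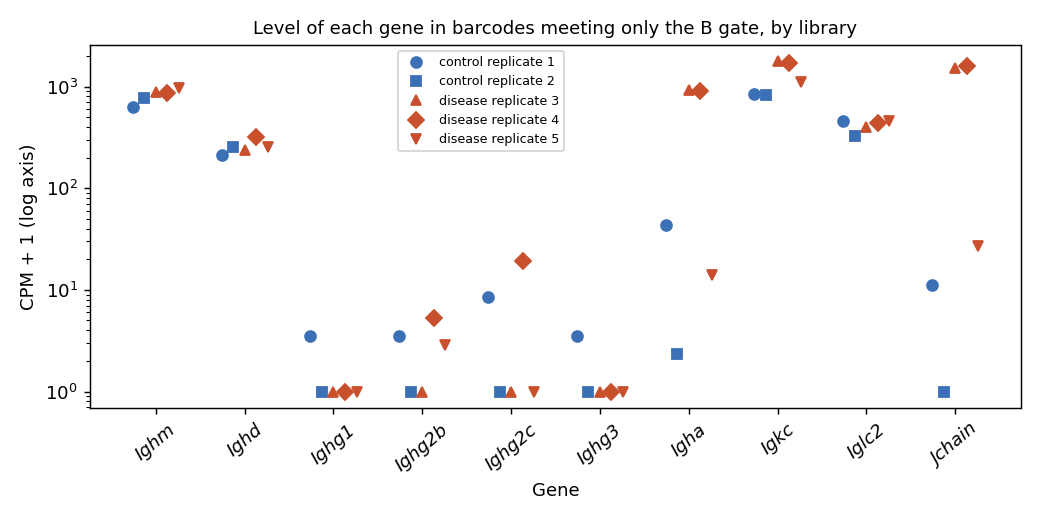
Level of each of the 10 genes (CPM + 1, logarithmic vertical axis) in barcodes that met only the B gate, with 1 point per library (blue, 2 control; red, 3 disease). Ighm lies at 623 to 961 CPM, Ighd at 211 to 320 and Iglc2 at 322 to 462. Igkc lies at 820 to 1775 with all 3 disease libraries above both controls, as did 19.6% of all genes tested after scaling. The 4 Ighg genes reach at most 18.0 CPM (Ighg2c in disease replicate 4). Igha and Jchain are highest in disease replicates 3 and 4, which hold 1 antibody-rich barcode each.

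In the planned comparison of disease with control over all B lineage barcodes, none of the 6 members that passed the low-count filter was called by edgeR's quasi-likelihood test with Benjamini-Hochberg adjustment. Of the 6, 3 had an unadjusted edgeR p under 0.05 (Igkc, Igha and Jchain), as did 1070 of the 7291 genes tested, but Igha and Jchain passed the filter only through the 2 antibody-rich barcodes of disease libraries. The 4 Ighg genes had too few UMIs for the filter. Of all 7291 genes tested, 2.00% were called, all of them lower in disease. The log2 fold changes were 0.42 ± 0.33 (SE) for Ighm, 0.33 ± 0.40 for Ighd, 1.04 ± 0.41 for Igkc and 0.44 ± 0.33 for Iglc2, with adjusted p of 0.64, 0.77, 0.32 and 0.63 in the same edgeR test. Igkc was higher in each disease library than in both control libraries, as were 14.6% of all genes tested. No fold change is given for Igha and Jchain, which rest on those 2 barcodes.

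The call for Igkc depended on which barcodes entered. When barcodes that met another gate were left out, Igkc rose in disease by a log2 fold change of 0.98 ± 0.22 (edgeR adjusted p = 0.038), while 0.276% of 5074 genes tested were called higher. In this fit Ighm, Ighd and Igkc lay higher in each disease library than in both control libraries after scaling, as did 19.6% of all genes. Jchain did so only with the 2 antibody-rich barcodes: without them control replicate 1, at 10.0 CPM, lay above disease replicates 3 and 4, and the groups overlapped. The fit gave 0.48 ± 0.16 for Ighm (edgeR adjusted p = 0.13) and 0.25 ± 0.21 for Iglc2 (edgeR adjusted p = 0.53). The summed B cell markers of these barcodes, given above, were also higher in each disease library. Their part in the difference of Igkc was not tested. Without the 2 antibody-rich barcodes the value for Igkc was 0.39, with an edgeR adjusted p of 0.20. The edgeR adjusted p for Igkc was also above 0.05 without control replicate 1 (0.15), without control replicate 2 (0.27) or without disease replicate 3 (0.072), although the fold change stayed between 0.85 and 1.05 in those 3 fits. In that fit edgeR called Igkc and Jchain without disease replicate 5, where 0.0947% of all genes were called higher. Over B-only barcodes DESeq2 called Igkc and Jchain (0.237% of all genes called higher), and edgeR without a low-count filter called Igkc, Jchain and Igha (1.05%). DESeq2 called Jchain over all B lineage barcodes, where it called 0.123% of all genes higher. There edgeR without a low-count filter called Jchain and Igha, beside 0.337% of all genes called higher. Jchain and Igha came almost wholly from the 2 antibody-rich barcodes in these fits, so their calls are no result about the groups. Both genes fell below the low-count filter once the 2 antibody-rich barcodes were removed.

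Over all kept barcodes none of the 6 members tested was called by edgeR, against 6.45% of 16068 genes, and 2 (Igha and Jchain) had an unadjusted p under 0.05, as did 2596 of the 16068 genes tested. Ighm stood at 55.2 and 59.9 CPM in control and at 52.3, 89.4 and 52.2 CPM in disease libraries, with an edgeR log2 fold change of 0.24 ± 0.35 (adjusted p = 0.75). Igkc stood at 9.13 and 28.7 CPM in control and at 31.9, 44.9 and 22.0 CPM in disease libraries, with 0.89 ± 0.58 (edgeR adjusted p = 0.51) and a range from 0.30 without control replicate 1 to 1.87 without control replicate 2. For Igkc, more B cells and more transcript per B cell cannot be told apart in such sums. The Ighm sums also hold UMIs of other classes, with 37.9 to 49.0% of them in myeloid barcodes. Without disease replicate 5, Jchain was called by edgeR, beside 0.00626% of all genes called higher. DESeq2 called Igha and Jchain over all kept barcodes, and 0.374% of all genes higher. These calls rest on the 2 antibody-rich barcodes and are no result about the groups. Without the 2 antibody-rich barcodes the edgeR log2 fold changes were 0.71 for Igha and 0.94 for Jchain, with adjusted p of 0.68 and 0.49.

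Class-switched heavy chains were scarce in these hearts. The 4 Ighg genes, which encode the IgG subclasses, gave 38 UMIs in all 37138 kept barcodes: 1 of Ighg1, 8 of Ighg2b, 25 of Ighg2c and 4 of Ighg3. Of the 25 Ighg2c UMIs, 19 were in disease replicate 4, and 15 of these in a single barcode, the one with 844 Igha UMIs described below. No Ighg UMI was seen in control replicate 2 or disease replicate 3. The constant genes of this family are close copies, so the subclass of a read that falls in a shared stretch is uncertain. The first 60 coding bases of their first constant exon show how far they differ (GENCODE M21, GRCm38, minus strand), with bases that differ from Ighg2c in capitals:
Ighg2c, chr12:113288873-113288932: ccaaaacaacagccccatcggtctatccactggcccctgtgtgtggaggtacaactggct
Ighg2b, chr12:113307874-113307933: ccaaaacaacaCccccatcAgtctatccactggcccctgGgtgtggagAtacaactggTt
Ighg1, chr12:113330464-113330523: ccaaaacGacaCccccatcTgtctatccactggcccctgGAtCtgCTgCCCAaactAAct
Ighg3, chr12:113361173-113361232: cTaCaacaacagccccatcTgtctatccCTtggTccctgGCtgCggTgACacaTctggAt
Ighg2b differs from Ighg2c at 5 of these 60 bases, and Ighg1 and Ighg3 at 14 each.

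Per barcode, a switched call needed at least 3 heavy chain UMIs, with at least 3 of Ighg or Igha and more of these than of Ighm and Ighd together. It was met by 1 of 93 and 0 of 132 B lineage barcodes in controls, and by 1 of 94, 3 of 257 and 0 of 130 in disease libraries. The 3 of 257 are 1.17% (95% Wilson interval 0.398 to 3.38%), and 0 of 132 allows a share of up to 2.27%. Intervals and limits cover counting error only. The difference between group means was 0.21 percentage points (p = 0.80, two-sided exact permutation, adjusted p = 1 over 6 tests), and it was -0.28 points without the 2 antibody-rich barcodes. The groups cannot be ordered at this depth.

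Igha and Jchain came almost wholly from 2 barcodes. Jchain gave 9 and 9 UMIs in all kept barcodes of the control libraries, and 686, 1514 and 23 in disease libraries. Igha gave 17 and 1 UMIs in control and 407, 865 and 12 in disease libraries. A barcode of disease replicate 3 with 32957 UMIs held 669 of Jchain, 401 of Igha and 345 of Igkc. A barcode of disease replicate 4 with 31143 UMIs held 1502 of Jchain, 844 of Igha and 792 of Igkc. These 2 barcodes carried 96.9% of all Jchain UMIs and 95.6% of all Igha UMIs of the 5 libraries. Each held neither Ighm nor Ighd nor Ms4a1, the gene of CD20. They held 148 and 121 UMIs of Mzb1, a chaperone of antibody assembly, and 35 and 6 of Tnfrsf17, the plasma cell receptor BCMA. Of 7 antibody-secreting cell markers, the first had 7 and the second 5.

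A single Ighv and a single Igkv segment made up most V segment UMIs of each of these barcodes. In the barcode of disease replicate 3, Ighv1-39 made up 96.5% of 2145 Ighv UMIs and Igkv6-23 made up 99.8% of 5108 Igkv UMIs. In that of disease replicate 4, Ighv3-6 made up 99.6% of 7777 Ighv UMIs and Igkv6-15 made up 99.8% of 12325 Igkv UMIs, beside 344 Iglv UMIs. Constant genes, V segments and Jchain together were 26.4 and 75.9% of their UMIs. Only the second met the limit of 5% of UMIs on the 9 constant genes alone, which gives 0.105 such barcodes per 1000 kept barcodes in disease replicate 4 and 0 in the other libraries (p = 1, two-sided exact permutation, adjusted p = 1 over 6 tests). At a limit of 2% the barcode of disease replicate 3 was counted too, at 0.175 per 1000. The number of such cells per heart cannot be compared between groups from 2 barcodes.

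A smaller set of barcodes carried a few of these transcripts. A barcode of disease replicate 5 held 14 Jchain, 18 Ighm and 5 Igha UMIs with 393 of Iglv. A barcode of control replicate 1 held 17 Igha and 4 Jchain UMIs with 32 of Ms4a1. After each B lineage barcode was thinned to 1000 UMIs, Jchain was seen in 0 of 168 and 0 of 275 in control libraries, and in 1 of 166, 1 of 513 and 1 of 217 in disease libraries (difference of means 0.42 percentage points, p = 0.20, two-sided exact permutation, adjusted p = 0.90 over 6 tests). The limits that 0 allows in the control libraries, 1.79 and 1.09%, lie above each of the disease shares. These counts depend on the random draw: a second draw, added after the data were seen, gave 1 of 166, 1 of 513 and 0 of 217 in disease libraries. In the second draw of B-only barcodes, 1 of 113 in control replicate 1 (0.885%) lay above every disease share, and the difference of means was 0.14 points (p = 0.80, two-sided exact permutation).

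**Figure D2:**
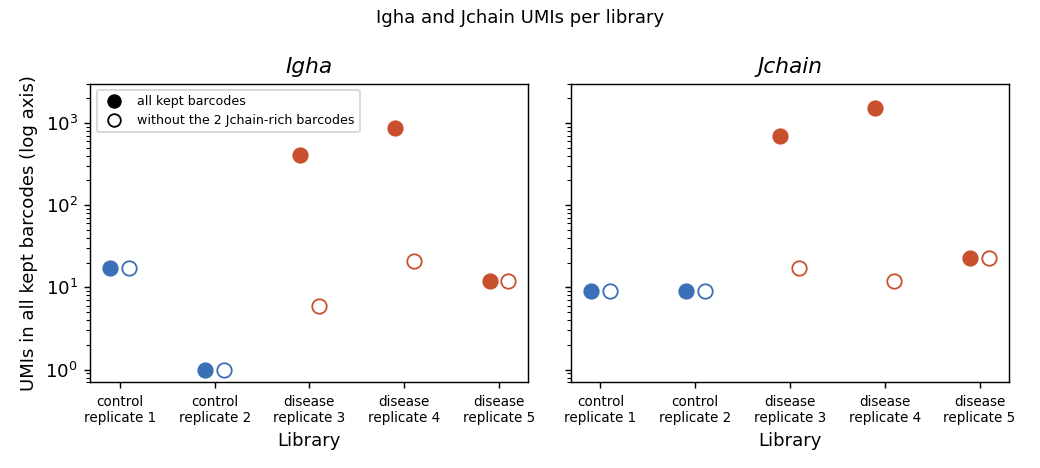
UMIs of Igha (left) and Jchain (right) in all kept barcodes of each library on a logarithmic axis; filled points count every barcode and open points leave out the 2 Jchain-rich barcodes. Without them Jchain falls from 686 to 17 UMIs in disease replicate 3 and from 1514 to 12 in disease replicate 4, in the range of the other libraries.

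The light chains were read in 2 ways, and the 2 readings differed. By V segments, of the B-only barcodes with at least 5 Igkv or Iglv UMIs, 93.1 to 96.5% of those called were kappa in each library. By constant genes, of the B lineage barcodes with at least 5 UMIs of Igkc, Iglc1, Iglc2 and Iglc3, most could not be called at 80% or more kappa or 20% or less: 46 of 65 and 45 of 80 in control libraries, and 40 of 64, 68 of 132 and 55 of 90 in disease libraries. Among the barcodes that could be called, kappa was 13 of 19 (68.4%, 95% Wilson interval 46.0 to 84.6%) and 26 of 35 (74.3%, 57.9 to 85.8%) in control libraries. It was 20 of 24 (83.3%, 64.1 to 93.3%), 44 of 64 (68.8%, 56.6 to 78.8%) and 30 of 35 (85.7%, 70.6 to 93.7%) in disease libraries. The difference of means, 7.91 percentage points, was within the spread between libraries (p = 0.30, two-sided exact permutation, adjusted p = 0.90 over 6 tests). It was 1.69 points in B-only barcodes. By V segments it was 0.56 points over B lineage barcodes, and the sign turned over B-only barcodes, to -0.93 points (p = 0.80, two-sided exact permutation).

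Iglc2 was found in barcodes whose V segments were kappa. It had a UMI in 59.8, 46.4, 47.8, 49.4 and 52.4% of the kappa-called B-only barcodes of replicates 1 to 5. Its mean in them ranged from 0.91 to 1.67 UMIs per barcode over the libraries. These kappa barcodes held 83.7 to 88.0% of all Iglc2 UMIs of the B-only barcodes. Igkc, by contrast, was in 76.6 to 82.5% of kappa-called and in 10.0 to 37.5% of lambda-called barcodes, of which there were 4 to 24 per library. After thinning to 1000 UMIs Iglc2 was in 20.4 to 32.4% of B-only and in 0 to 0.075% of endothelial barcodes. It was higher in 5 of 5 libraries (mean difference 28.2 percentage points, p = 0.0625, exact sign-flip test over 5 libraries, the smallest it can give, adjusted p = 0.080 over 9 tests). Both classes were gated on B genes, which largely set the direction beforehand. All B-only barcodes entered, so this comparison cannot decide about the kappa-called ones.

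**Figure D3:**
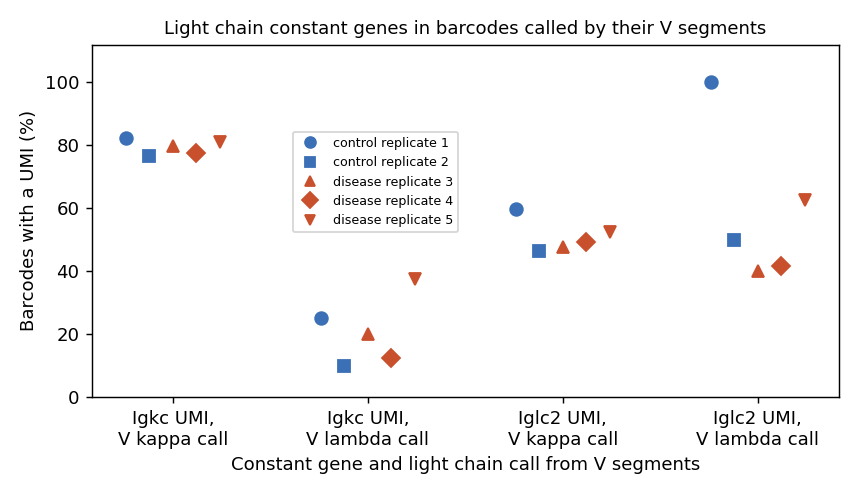
Percent of B-only barcodes with a UMI of Igkc or Iglc2, split by the light chain their V segments gave (kappa or lambda, at least 5 V segment UMIs), with 1 point per library. Igkc separates the calls, at 76.6 to 82.5% against 10.0 to 37.5%, while Iglc2 is in 46.4 to 59.8% of kappa-called barcodes and overlaps with the lambda-called ones.

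Sequence and annotation bear on how Iglc2 counts can be read. Iglc3 is a near copy of Iglc2: 11 of 314 coding bases compared differ, an identity of 96.5%. The start of the lambda constant exons shows how far these genes differ there (GENCODE M21, GRCm38, minus strand), with bases that differ from Iglc2 in capitals:
Iglc2, chr16:19198793-19198852: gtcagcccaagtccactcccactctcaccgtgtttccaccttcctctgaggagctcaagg
Iglc3, chr16:19065622-19065681: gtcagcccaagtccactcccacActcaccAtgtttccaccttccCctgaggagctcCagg
Iglc1, chr16:19062012-19062071: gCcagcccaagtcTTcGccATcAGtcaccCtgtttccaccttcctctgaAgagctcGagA
Iglc3 differs from Iglc2 at 4 of these 60 bases and Iglc1 at 12. Iglc3 was counted in 30.9 to 44.8% of the B-only barcodes and Iglc1 in 7.41 to 14.7%. An annotated Iglc2 transcript starts with an exon at chr16:19200198-19200351 that covers the joining segment Iglj2 (chr16:19200198-19200235), so transcripts with no V segment can count as Iglc2. How many of the Iglc2 UMIs were of that kind was not tested.

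Ighm was not limited to B lineage barcodes. B lineage barcodes held 17.0 and 44.7% of all Ighm UMIs in control libraries and 32.3, 29.4 and 34.5% in disease libraries. Over B-only barcodes the share was 9.24 and 42.5% in control libraries and 28.6, 19.9 and 28.6% in disease libraries. Myeloid barcodes held 49.0 and 40.2% in control and 43.5, 37.9 and 43.4% in disease libraries. For Igkc the myeloid share was 0 to 0.385%, for Iglc2 0 to 0.40% and for Ighd 1.55 to 8.06%. Ighm had a UMI in 50.7 and 53.8% of myeloid barcodes in control and in 52.4, 48.7 and 54.2% in disease libraries, against 0.506 to 1.34% of endothelial barcodes. Median depths were 4768.5 to 5999 UMIs in the myeloid and 2409.5 to 3252 UMIs in the endothelial class. Thinned to 1000 UMIs, the shares were 14.9 to 21.7% and 0.141 to 0.373%, a mean difference of 17.4 ± 2.54 percentage points (SD, n = 5; exact sign-flip p = 0.0625, the smallest it can give, adjusted p = 0.080 over 9 tests). Thinning left out the barcodes with fewer than 1000 UMIs.

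The myeloid Ighm UMIs came with few V segments. Myeloid barcodes held 1314, 559, 590, 1568 and 786 Ighm UMIs in replicates 1 to 5, beside 7, 4, 4, 8 and 1 Ighv UMIs. That is 0.0013 to 0.0072 Ighv UMIs per Ighm UMI, against 2.76 to 3.36 in B-only barcodes without the 2 antibody-rich ones and 0.158 to 0.40 in endothelial barcodes. The thinned share with Igkv was 0 to 2.22% of myeloid and 0.176 to 1.63% of endothelial barcodes, a mean difference of 0.12 percentage points that was above 0 in 3 of 5 libraries (exact sign-flip p = 0.69). The B cell markers Cd79a, Cd79b and Ms4a1 are at 0 in the myeloid class by its definition. Of all 11 B cell markers, 4 to 7 per library were detected in myeloid barcodes, with a summed level of 219 to 279 CPM, against 5 to 7 and 320 to 342 CPM in endothelial barcodes. Most of the myeloid sum was Cd37, in 44.4 to 55.1% of barcodes, and Bank1, in 15.3 to 29.6%, while Pax5 was at 0 in all 5 libraries. The endothelial sum was almost all Ebf1, at 315 to 329 CPM, so the sums do not compare B cell RNA between the classes. The part of these markers in the result was not tested.

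In the order of Ighm levels, B-only barcodes were followed by myeloid barcodes at 207, 268, 219, 183 and 189 CPM in replicates 1 to 5. T barcodes stood at 23.6, 58.5, 27.4, 39.1 and 39.4 CPM, endothelial at 3.62, 1.67, 2.92, 8.55 and 1.63 CPM, and fibroblast at 1.80, 0.63, 1.64, 2.25 and 0.90 CPM. This order held in 5 of 5 libraries. The T barcodes also held little Ighv, with 0, 0, 0, 12 and 1 UMIs beside 68, 22, 16, 354 and 111 of Ighm. Their thinned Ighm share exceeded the endothelial one in 5 of 5 libraries, by 2.97 ± 0.92 percentage points (SD, n = 5; exact sign-flip p = 0.0625, adjusted p = 0.080 over 9 tests).

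**Figure D4:**
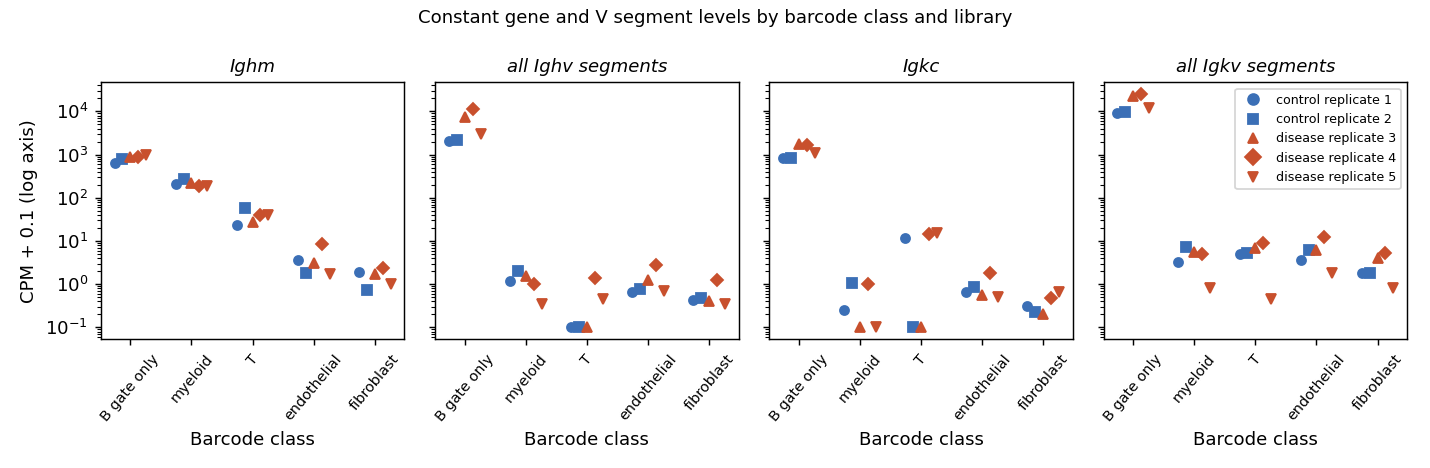
Levels of Ighm, all Ighv segments, Igkc and all Igkv segments (CPM + 0.1, logarithmic vertical axis) in 5 classes of barcodes, with 1 point per library (blue, control; red, disease). Ighm falls stepwise from B-only to myeloid, T, endothelial and fibroblast barcodes, whereas Ighv and Igkv fall to about the endothelial level in every class but the B one.

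Within the myeloid class, Ighm was higher in barcodes with resident macrophage markers than in the rest. Barcodes with at least 2 UMIs of Lyve1, Folr2 and Timd4 stood at 254, 292, 271, 279 and 251 CPM in replicates 1 to 5, and the other myeloid barcodes at 153, 229, 122, 117 and 124 CPM. The difference was 120 ± 39.6 CPM (SD, n = 5) and positive in 5 of 5 libraries. Barcodes with at least 2 UMIs of the monocyte genes Ccr2, Ly6c2 and Plac8 had a lower Ighm CPM than the rest in each library, by 66.4 to 125 CPM. Barcodes with Cxcl9, an interferon-gamma-induced chemokine gene, also had a lower CPM in each library, by 85.7 to 145 CPM. They numbered 8 in control replicate 2 and 22 in disease replicate 3, with 11 and 23 Ighm UMIs. The share of barcodes with an Ighm UMI did not follow the CPM in these 2 splits. It was higher with the monocyte genes in all 5 libraries (54.1 to 58.5% against 47.2 to 54.0%), and with Cxcl9 in disease replicates 3 (59.1 against 52.1%) and 4 (48.9 against 48.5%), so no order is read from them. With the resident macrophage markers the share was 63.3 to 68.7% against 32.5 to 40.6%. Each of the 3 comparisons had an exact sign-flip p of 0.0625, the smallest possible, with an adjusted p of 0.080 over 9 tests. Barcodes that reached a marker minimum were deeper than the rest in all 3 splits and 5 libraries, and no comparison was made at equal depth. The markers were chosen after earlier results of these data were known.

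**Figure D5:**
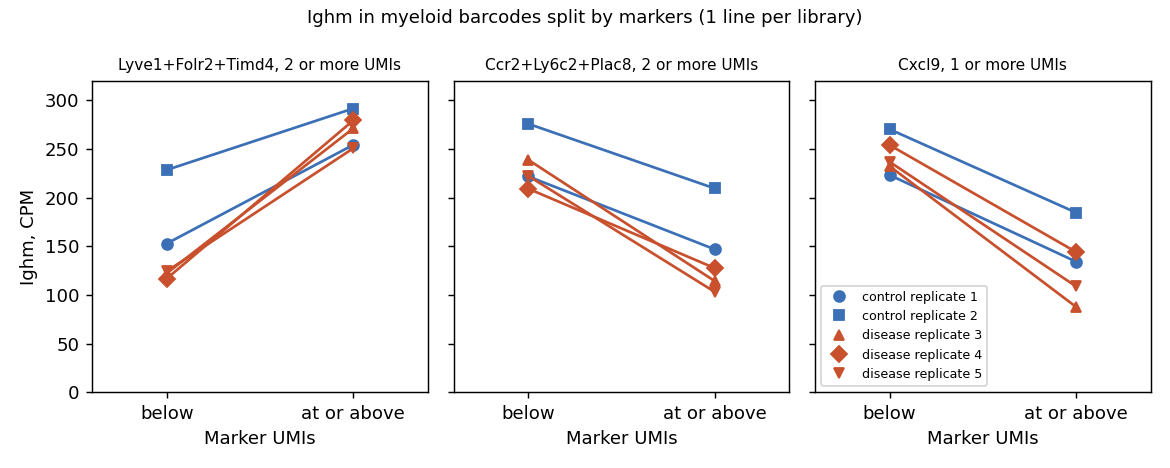
Ighm (CPM) in myeloid barcodes below and at or above a minimum of UMIs of 3 marker sets, with 1 line per library. All 5 lines rise with the resident macrophage genes Lyve1, Folr2 and Timd4, and all 5 fall with the monocyte genes and with Cxcl9.

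Disease and control did not separate in the Ighm of myeloid barcodes. The means were 238 ± 42.8 CPM (SD, n = 2) in control and 197 ± 18.8 CPM (SD, n = 3) in disease libraries, and the ranges overlapped. A fit on these sums, added after the data were seen, gave a log2 fold change of -0.16 ± 0.18 (edgeR adjusted p = 0.63), and 6.95% of 10958 genes were called. In T barcodes Ighm gave -0.03 ± 0.43 (edgeR adjusted p = 0.99), with 4.81% of 9602 genes called. In endothelial barcodes Ighm was the only member above the low-count filter and gave 0.56 ± 0.76 (edgeR adjusted p = 0.68), with 11.6% of 12879 genes called. Library replicate 4 had the highest endothelial Ighm, and without it the log2 fold change was -0.30.

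Other leukocytes, gated with genes picked after the data were seen (Flt3, Xcr1 and Cd209a for dendritic cells; Ly6c2, Ccr2 and Plac8 for monocytes; Ncr1, Klrb1c and Gzma for natural killer cells; Csf3r, Cxcr2 and Mmp9 for neutrophils), also held Ighm. Only barcodes that met none of the gates above and held no UMI of the B gate genes were used. Each had at least 2 UMIs of the genes of its class. Cells of these types that met the myeloid or another gate are therefore not among them. Ighm was in 42.9 to 67.3% of dendritic barcodes (7 to 52 per library, median 10161 to 16528 UMIs). It was in 8.33 to 48.2% of monocyte barcodes (24 to 110 per library). It was in 4.35 to 22.6% of natural killer and 6.90 to 15.8% of neutrophil barcodes. Ighv gave 0 UMIs in the dendritic and natural killer barcodes of every library, 1 in monocyte barcodes (control replicate 2) and 2 each in neutrophil barcodes of control replicate 2 and disease replicate 4. Igkv gave up to 4 UMIs per library in dendritic, up to 8 in natural killer, up to 8 in monocyte and up to 2 in neutrophil barcodes. These classes differ in depth and in number, and no test was made between them.

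Igkc outside the B class had another distribution. Among T barcodes it was in 17 of 515 and 0 of 84 in controls, and in 0 of 133, 57 of 2046 and 26 of 552 in disease libraries. The 0 of 84 and 0 of 133 allow shares of up to 3.57 and 2.26%. The T barcodes with Igkc held 34, 129 and 42 Igkc UMIs in the 3 libraries that had any, with up to 33 in 1 barcode, and 0, 1 and 1 UMIs of Igkv. Cd8a was present in 14 of 17, 49 of 57 and 24 of 26 of them, against 72.3, 79.3 and 77.2% of the T barcodes without Igkc. Mki67, a proliferation marker, was in 3, 12 and 7 of them, against 7.43, 7.89 and 7.22% of the rest. The barcodes with Igkc were deeper, with medians of 7606, 4161 and 5323.5 UMIs against 4741.5, 3732 and 4272.5, and no test was made at equal depth. Thinned, the T share exceeded the endothelial one in 3 of 5 libraries, by 0.73 ± 0.71 percentage points (SD, n = 5; exact sign-flip p = 0.25). The log2 fold change of Igkc in T barcodes was 0.41 ± 0.90 (edgeR adjusted p = 0.87), and leaving out 1 library moved it between -0.0031 and 8.23.

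Free Igkc RNA was low in endothelial barcodes. In endothelial barcodes thinned to 1000 UMIs, it was seen in 1 of 2650 and 0 of 2412 in control libraries, and in 1 of 2280, 2 of 1660 and 1 of 2846 in disease libraries. These shares, 0 to 0.12%, did not differ between the groups beyond the spread of libraries (difference 0.048 percentage points, p = 0.50, two-sided exact permutation, adjusted p = 1 over 6 tests). In the second random draw, the one used for the comparison of T with endothelial barcodes, the counts were 2 and 0 in controls and 2, 2 and 2 in disease libraries (difference 0.055 points, p = 0.30, two-sided exact permutation). With deeper thinning the sign of the difference turned, to -0.034 points. Before thinning, endothelial barcodes held 38, 55, 52, 64 and 17 Igkv UMIs in replicates 1 to 5. Igkc gave 6, 7, 4, 9 and 4 UMIs there, so Igkc alone understates free kappa RNA.

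Genes that act with the members were read from lists fixed by name. In B lineage barcodes, none of 16 B cell receptor signalling genes, 10 regulators of B cell identity, 12 of 16 antibody secretion genes tested, 6 of 10 class switch and germinal centre genes tested or 6 follicular genes was called by edgeR, against 2.00% of all genes. At an unadjusted edgeR p under 0.05 there were 2 antibody secretion genes, 1 receptor signalling gene and 1 class switch gene, beside 1070 of all 7291 genes. The median log2 fold changes were -0.05, 0.20, -0.15, -0.42 and 0.27 in that order, beside 0.06 for all genes. The receptors and transporters of antibody (Fcmr, Fcer2a, Fcgr2b, Fcgrt and Cr2 tested, Pigr below the filter) also had no call, with a median of 0.31. Of 6 genes associated with B-1 cells, 3 were tested and none was called.

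In B-only barcodes, Plcg2, a phospholipase that carries the receptor signal, was the only gene of these lists that was called. It fell by 1.13 on the log2 scale (edgeR adjusted p = 0.024), and 8.71% of all genes tested were called lower there. Of 16 receptor signalling genes, 8 lay higher in each disease library than in both controls and 3 lower. These counts were 4 and 0 of 6 follicular genes and 3 and 0 of 5 receptors and transporters. They were 3 and 2 of 9 identity regulators and 4 and 2 of 10 antibody secretion genes. Of all genes, 19.6% lay higher and 22.9% lower. Over all kept barcodes, 3 of 16 antibody secretion genes fell in disease by the edgeR test, beside 6.40% of all genes, and none rose. They were Xbp1, the transcription factor of the secretory programme, Creld2 and Derl3, by 1.81, 2.33 and 2.59 on the log2 scale with adjusted p of 0.0044, 0.0034 and 0.025. Xbp1 and Creld2 were called lower in endothelial, myeloid and T barcodes as well, where 11.3, 6.73 and 4.8% of all genes were called lower.

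The genes most like the members across the 5 classes and 5 libraries were found by Pearson's r of log2(CPM + 1) over 25 points, among 7249 genes with at least 50 UMIs in B lineage barcodes and outside the immunoglobulin loci. Points of a library share its depth, and r is a description here. Igkc was most like Tnfrsf13c (r = 0.989), the receptor of the survival factor BAFF, then Fcrl1 (0.980) and Cxcr5 (0.978). Ighm was most like Prkcb (0.978), A630001G21Rik (0.975) and Tnfrsf13b (0.966). Jchain was most like Ffar1 (0.804), Mzb1 (0.775) and Pax5 (0.760), and its points for the B class of disease replicates 3 and 4 rest on 1 antibody-rich barcode each.

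The antibody repertoire of the remaining B-only barcodes was spread over many segments. With at least 10 Igkv UMIs per barcode, the top segment made up 80% or more of them in 81.1 to 87.2% of barcodes. Between 42 and 64 different Igkv segments were the top one per library, among 90 to 304 barcodes. The commonest segment took 6.86 to 9.58% of the Igkv UMIs of a library, and for Ighv 5.52 to 10.7%.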

How the data were processed

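Values in the deposited files are unnormalized UMI counts; the headers name Cell Ranger 3.1.0 as the program the authors ran. The submitters' processing notes name Cell Ranger 3, Seurat 3 and the builds GRCh38 and mm10. Whether counting used strand or how reads shared by near copies were assigned is not given in the sources used here. Positions and sequences come from GENCODE M21.

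A barcode was kept if it had 500 or more UMIs, 200 or more genes and a mitochondrial share no higher than 10%. This left 37138 of 47319 barcodes after Scrublet calls (scanpy 1.11.5) were removed. Filters removed 12.4 to 32.5% per library. In control replicate 2 the automatic threshold marked 0.0716% of barcodes, so the median threshold of the other libraries was used (1.22% marked), a choice made after seeing the data. Total UMIs per library before filters were 24991704 to 55053988. Counts were summed per library and class and tested with edgeR 4.0.16 (quasi-likelihood, TMM, filterByExpr, R 4.3.3), with an adjusted p under 0.05 as a call. DESeq2 1.42.0 was an alternative. Shares were compared by exact permutation (SciPy 1.17.1), and classes within libraries by sign flips. The edgeR script was tested on simulated data. The members, lists and gates were chosen with earlier results of these data known. All 10 members, list genes and, for Igkc, Ighm and Jchain, the 3 most correlated genes outside the immunoglobulin loci could be named.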

Additional observations from a re-analysis of the deposited data

How the results depend on the processing

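No paired analysis was possible because the control and disease libraries share no replicate numbers. The disease minus control difference in B lineage share was -0.0022 percentage points with barcodes of other gates left out, and -1.24 to 1.91 when 1 library was left out. The kappa difference was 1.69 points with barcodes of other gates left out and 0.56 by V segments, against 7.91, and turned sign by V segments in B-only barcodes (-0.928). It ranged over 4.69 to 13.2 points, the Jchain share over 0.328 to 0.532 and the free Igkc share over 0.0206 to 0.0665 when 1 library was left out. In a second random draw of the thinning the Jchain difference was 0.266 points, or 0.138 in B-only barcodes, and the free Igkc difference 0.0551. The free Igkc difference was -0.034 points when thinned to a greater depth. The class-switched difference was -0.28 points without the 2 Jchain-rich barcodes and -0.33 to 0.74 when 1 library was left out. The difference in immunoglobulin-rich barcodes per 1000 was 0.0934 at a limit of 2% of UMIs, against 0.0350 at 5%, and 0 at a limit of 10% of UMIs or without those 2 barcodes, and 0 to 0.0524 when 1 library was left out. Over all kept barcodes DESeq2 called 2 members (0.374% of all genes higher), and 0 to 1 were called when 1 library was left out. Over B lineage barcodes DESeq2 called 1 (Jchain, 0.123%), no low-count filter 2 (Jchain and Igha, 0.337%) and the exclusion of other gates 1 (Igkc, 0.276%). Over B-only barcodes, a fit added after seeing the data, DESeq2 called 2 (0.237%), no filter 3 (1.05%), and removal of the 2 Jchain-rich barcodes 0, while leaving out 1 library gave 0 to 2. In these counts the members other than Igkc were Igha and Jchain, whose calls rest on the 2 Jchain-rich barcodes. When 1 library was left out, log2 fold changes of single genes turned sign for Ighm (-0.18 to 0.40), Ighd (-0.41 to 1.37) and Iglc2 (-0.15 to 0.89) over all kept barcodes. They also did for Ighd over B lineage barcodes (-0.15 to 1.08), Ighm over endothelial (-0.30 to 1.23) and T barcodes (-0.76 to 0.64), Igkc over T barcodes (-0.0031 to 8.23) and Iglc2 over B-only barcodes (-0.0050 to 0.58). The cause was not tested. The second draw, the V segment calls, the fits of myeloid and T barcodes and every setting without the 2 Jchain-rich barcodes were chosen after seeing the data.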
